A study of Homo sapiens with 24 samples.

Results

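PRO-seq, which maps engaged RNA polymerases at base resolution, was performed in 3 clones of T47D, a luminal breast cancer cell line, in which the transcription factor TRPS1 carries a degron tag. The genes described here are 8 named genes of the membrane-anchored serine protease system, TMPRSS2, TMPRSS3, TMPRSS4, TMPRSS13, ST14, PRSS8, SPINT1 and SPINT2. They were found by symbol among the 60605 identifiers of the count table, all 8 were present, and all 8 were among the 22326 genes that passed the filter on low counts. They were chosen as a named gene system, with earlier results of these data known. TMPRSS2 and TMPRSS13 are also on lists of repressed genes that the study drew from a separate time course of Clone 28. That time course used a second compound, another dose and other treatment times than the libraries described here.

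Clones 28, 35 and 39 each received DMSO at 0.1% v/v or 100 nM dTAG-13, a small molecule that directs the tagged protein to degradation, for 90 minutes. Each of the 6 groups has 4 replicates, and there are 24 libraries in all. In every group, controls included, the tagged protein is the only TRPS1 expressed and other copies of TRPS1 were disrupted during editing, and each line is 1 clone. Replicates differ in their time of collection within a day, while both treatments of a replicate were collected at once, so within a clone the replicate number pairs a DMSO library with a dTAG-13 library, which gives 12 pairs. By the study's methods cells were plated in a dish for each sample the day before harvest, so p-values measure the spread between dishes of one clone handled within a day.

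Type II transmembrane serine proteases are held in the plasma membrane by a segment near their amino terminus and expose a trypsin-like catalytic domain outside the cell. They are made as inactive zymogens, and cleavage of the zymogen, often by another membrane-bound protease, switches them on. In epithelia matriptase, the product of ST14, and prostasin, the product of PRSS8, activate each other and act on substrates such as epithelial sodium channel subunits and the precursor of hepatocyte growth factor, while the Kunitz-type inhibitors HAI-1 (SPINT1) and HAI-2 (SPINT2) restrain them. PRSS8 is anchored by a lipid rather than by a type II segment, and the inhibitors cross the membrane in the opposite orientation, so 5 of the 8 genes encode type II proteases in the strict sense. PRO-seq reads the polymerases on these genes and says nothing of RNA stability, zymogen activation or inhibitor binding.

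Total counts per library ranged from 3226718 to 9575803, with a median of 5042122. All 7 luminal markers (ESR1, PGR, GATA3, FOXA1, KRT8, KRT18 and KRT19) had at least 292 counts in every library, whereas the basal markers KRT5 and KRT14 had at most 2 and 5 counts and stood at 0 in 16 and 11 libraries. The immune marker PTPRC had 7 to 25 counts and the fibroblast marker COL1A1 had 35 to 108. TRPS1 itself had 23280 to 69958 counts and was higher in the dTAG-13 library of 12 of 12 pairs, by 0.19 on the log2 scale (edgeR quasi-likelihood adjusted p = 0.733, and 6.65e-04 with the pairs in the model). The degron removes the protein, so transcription of TRPS1 does not check the depletion.

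When the level was expressed per length, PRSS8, SPINT1, ST14, TMPRSS13 and SPINT2 stood above TMPRSS2, TMPRSS3 and TMPRSS4 in every library. Levels are counts scaled to the size of the library (TMM-scaled CPM) divided by the kilobases of the GENCODE gene span, and are given as the mean over the 12 DMSO libraries. PRSS8 stood at 3.18 ± 0.543, SPINT1 at 3.14 ± 0.213 and ST14 at 3.06 ± 0.148 CPM per kb (SD, n = 12). The order of these 3 genes was not fixed, since PRSS8 was first in 11, SPINT1 in 9 and ST14 in 4 of the 24 libraries, but no other member entered the first 3 places in any library.

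TMPRSS13, a type II protease of epidermis and other epithelia, was the fourth in every library at 2.01 ± 0.140 CPM per kb. SPINT2 was the fifth in every library at 1.36 ± 0.109 CPM per kb. TMPRSS3, TMPRSS2 and TMPRSS4 were lower, at 0.399 ± 0.313, 0.342 ± 0.0337 and 0.288 ± 0.0889 CPM per kb, and exchanged places between clones. The TMPRSS3 mean mixes clones, with 0.818 CPM per kb in Clone 39, 0.194 in Clone 28 and 0.184 in Clone 35 in DMSO. Per length, ST14 and its inhibitor SPINT1 were close at the median, with a SPINT1 to ST14 ratio of 1.04, which ran from 0.825 to 1.19 over the 24 libraries. The SPINT2 to ST14 ratio was 0.438 at the median and 0.383 to 0.494 over the same libraries. It rests on the GENCODE span of SPINT2 and would be higher with the shorter RefSeq span.

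**Figure D1:**
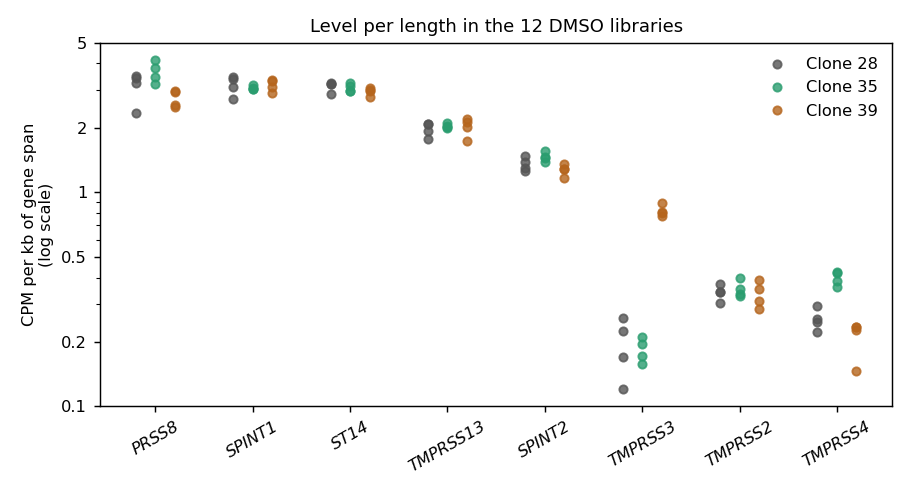
Level of each gene in the 12 DMSO libraries, as CPM per kb of GENCODE gene span on a log scale, with points coloured by clone. PRSS8, SPINT1 and ST14 overlap at the top, TMPRSS13 and SPINT2 follow, and TMPRSS3 splits into a high set for Clone 39 and a low set for Clones 28 and 35.

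The annotation used for length matters for 2 genes. The RefSeq span of SPINT2 is 28.04 kb against 48.6 kb in GENCODE, which gives 2.36 CPM per kb and would place it above TMPRSS13, and the RefSeq span of TMPRSS2 is 43.9 kb against 66.8 kb, which gives 0.522 CPM per kb and would place it above TMPRSS3. The gene windows used for counting are not given in the sources used here. GENCODE spans ran from 4.295 kb for PRSS8 to 66.8 kb for TMPRSS2, and polymerases near a gene's start were not counted apart from the rest. The order per kb therefore need not be the order of transcription.

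The largest difference among the members lay between clones and concerned TMPRSS3 (ENSG00000160183), a type II protease whose loss causes hereditary deafness. The gene lies on the minus strand at chr21:42371887-42396091 (hg38) and its main transcript has 13 exons. In DMSO the 4 libraries of Clone 39 held 18.8, 19.6, 21.5 and 19.4 CPM, those of Clone 28 held 5.47, 2.93, 6.24 and 4.12 CPM, and those of Clone 35 held 3.81, 4.74, 5.11 and 4.15 CPM. In dTAG-13 the values were 21.7, 15.7, 15.6 and 17.6 CPM in Clone 39, 5.02, 2.24, 3.29 and 2.89 CPM in Clone 28, and 2.43, 2.72, 4.50 and 4.59 CPM in Clone 35. The 8 libraries of Clone 39 (15.6 to 21.7 CPM) did not overlap the 16 libraries of the other clones (2.24 to 6.24 CPM) under either treatment.

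That separation above both other clones was found for 661 of 22326 genes in Clone 39 (2.96%). In DMSO TMPRSS3 was higher in Clone 39 than in Clone 28 by 2.08 on the log2 scale (95% interval 1.67 to 2.49, edgeR quasi-likelihood adjusted p = 8.60e-10) and higher than in Clone 35 by 2.13 (1.73 to 2.53, adjusted p = 2.49e-10). Only 150 of the 22326 genes (0.672%) had a larger difference in size between Clones 39 and 28. Between Clones 35 and 28 the difference was -0.05 with an interval of -0.53 to 0.42. Among the dTAG-13 groups the differences of Clone 39 were 2.42 and 2.25 (adjusted p = 7.34e-11 and 1.42e-10). The low clones had few reads, 13 to 43 counts per library against 50 to 97 in Clone 39. In a bulk library fewer transcribing cells and fewer polymerases per cell cannot be told apart.

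The genes around TMPRSS3 did not share a difference of this size. Of 17 tested genes within 500 kb, 5 were higher in Clone 39 than in Clone 28 at the threshold and none lower. Of all tested genes 26.7% passed in this contrast, in either direction. The median difference of the 17 genes was 0.08, and the largest was 1.55, for LINC01671. The nearest tested gene on the low-coordinate side, 5352 bp away on the same strand, was TFF1, a classical estrogen-induced gene of luminal breast cells, at 1.89 CPM in Clone 28 and 4.68 CPM in Clone 39 in DMSO (difference 1.34, adjusted p = 0.0102). The next trefoil gene with enough reads, TFF3, chosen after its values were seen, differed by 0.53 (adjusted p = 0.0972). Against Clone 35 the same 17 genes had a median difference of 0.08, with 4 higher in Clone 39 and 2 lower, where 22.6% of all tested genes passed. TFF3 had the largest difference of them, higher by 1.03 (adjusted p = 0.00112), and TFF1 was higher by 0.96 (adjusted p = 0.0532). No annotated gene overlaps TMPRSS3.

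The sequence table held an upstream window for 2 of the 8 members, TMPRSS3 and SPINT1, and both are shown because one has the largest clone difference and the other passed in no contrast between clones. The TMPRSS3 window is chr21:42389150-42389399, minus strand, the 250 bases before a RefSeq start that lies inside the GENCODE gene and overlaps no annotated exon of it. The SPINT1 window is chr15:40843798-40844017, plus strand, 220 bases that end where the GENCODE gene begins. Both are RefSeq sequence of GRCh38.p14, written 5′ to 3′, with capitals on matches to 4 short motifs searched on both strands.
TMPRSS3: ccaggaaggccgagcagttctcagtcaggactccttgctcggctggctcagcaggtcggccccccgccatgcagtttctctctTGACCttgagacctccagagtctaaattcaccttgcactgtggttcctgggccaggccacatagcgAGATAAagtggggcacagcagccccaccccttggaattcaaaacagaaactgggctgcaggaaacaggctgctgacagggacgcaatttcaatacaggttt
SPINT1: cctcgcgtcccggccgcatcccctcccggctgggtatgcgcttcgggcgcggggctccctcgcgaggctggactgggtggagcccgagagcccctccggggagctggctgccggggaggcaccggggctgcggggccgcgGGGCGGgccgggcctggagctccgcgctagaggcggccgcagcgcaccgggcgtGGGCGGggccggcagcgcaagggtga

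The motifs were AGATAA, a form of the GATA motif that TRPS1 and its relatives read, GGTCA, the core of each arm of an estrogen response element, the TATA box TATAAA and the GC box GGGCGG, and none of them overlaps another in these windows. The TMPRSS3 window held AGATAA once, 101 bases before the start, and GGTCA once on the other strand (TGACC), 167 bases before it. The SPINT1 window held GGGCGG at 2 places and had a GC content of 80.9%, against 56.0% for TMPRSS3. Of 35116 windows of 250 bases in the table, AGATAA was in 9.17%, GGTCA in 32.6%, TATAAA in 10.7% and GGGCGG in 42.6%. These matches describe letters and not binding.

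TMPRSS4 (ENSG00000137648, chr11:118077012-118121890, plus strand), a protease known for high expression in several carcinomas, was highest in Clone 35. In DMSO its values were 19.1, 17.3, 16.2 and 18.8 CPM in Clone 35, 13.2, 11.5, 11.2 and 10.0 CPM in Clone 28, and 10.2, 10.6, 6.54 and 10.6 CPM in Clone 39. The 4 DMSO libraries of Clone 35 lay above the 8 of the other clones, a separation whose share among all tested genes was not computed. Against the DMSO libraries of Clone 28 alone, 4.35% of all tested genes separated in this direction. Clone 35 exceeded Clone 28 by 0.64 on the log2 scale (95% interval 0.30 to 0.98, adjusted p = 0.0201), and Clone 39 was below Clone 35 by a difference of -0.90 (-1.24 to -0.55, adjusted p = 1.41e-04). Clones 39 and 28 differed by -0.26, with an interval of -0.63 to 0.11.

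Under dTAG-13 TMPRSS4 held 17.2, 11.9, 11.3 and 20.1 CPM in Clone 28 and 17.6, 15.9, 18.4 and 18.2 CPM in Clone 35, so that those groups overlapped and differed by 0.24 (adjusted p = 0.558). Whether the dTAG-13 change itself differed between the clones did not pass the test (unadjusted p = 0.212, adjusted p = 1.00). TMPRSS13, the tested gene nearest to TMPRSS4 on its low-coordinate side at a distance of 147553 bp, did not have this order of clones. SMIM35 overlaps TMPRSS4 by 11288 bp on the opposite strand, at a mean of 2.10 CPM.

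PRSS8 (ENSG00000052344, chr16:31131433-31135727, minus strand) was lower in Clone 39 than in Clone 35. In DMSO PRSS8 had 11.0, 10.8, 12.8 and 12.6 CPM in Clone 39 and 13.8, 14.9, 16.4 and 17.8 CPM in Clone 35, groups that did not overlap, as for 11.2% of all tested genes in this direction, with a difference of -0.43 (95% interval -0.74 to -0.11, adjusted p = 0.0544). This call was lost on leaving out any one of 4 DMSO libraries, replicates 3 and 4 of Clone 35 and replicates 1 and 2 of Clone 39 (adjusted p at most 0.179), and among the dTAG-13 groups the difference was -0.19 (adjusted p = 0.486). KAT8, with a mean of 61.2 CPM against 13.7 CPM for PRSS8, ends 40 bp from PRSS8 on the opposite strand, and the strand setting of the counting is not given in the sources used here.

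SPINT2 (ENSG00000167642, chr19:38244035-38292615, plus strand) was lower in Clone 39 than in Clone 35 by a smaller step. In DMSO SPINT2 held 62.5, 56.9, 62.7 and 66.1 CPM in Clone 39 against 67.5, 75.6, 70.1 and 70.8 CPM in Clone 35. These groups did not overlap, as for 11.2% of all tested genes in this direction, and differed by -0.19 (95% interval -0.32 to -0.07, adjusted p = 0.0265). Leaving out DMSO replicate 2 of Clone 35 or of Clone 39 ended this call (adjusted p = 0.117 and 0.122), and it also missed the threshold with no filter on low counts (adjusted p = 0.103). Against Clone 28 in DMSO the groups overlapped, and SPINT2 in Clone 39 differed by -0.08 (95% interval -0.21 to 0.05, adjusted p = 0.404). Among the dTAG-13 groups SPINT2 in Clone 39 differed from Clone 35 by -0.22 and from Clone 28 by -0.25 (adjusted p = 0.0136 and 0.00486). A readthrough gene, ENSG00000267748, overlaps SPINT2 by 3465 bp on the same strand at a mean of 51.9 CPM, so some reads may be counted for both, and its own difference between Clones 39 and 35 was -0.03.

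In DMSO, then, TMPRSS3, TMPRSS4, PRSS8 and SPINT2 passed the threshold between Clones 39 and 35, where 22.6% of all tested genes passed. TMPRSS3 alone passed between Clones 39 and 28, where 26.7% of genes passed, and TMPRSS4 alone between Clones 35 and 28, where 5.25% passed. TMPRSS2, TMPRSS13, ST14 and SPINT1 passed in none of these contrasts. Among the dTAG-13 groups TMPRSS3, TMPRSS4, TMPRSS13 and SPINT2 passed between Clones 39 and 35 (21.5% of all genes) and between Clones 39 and 28 (26.4%), and no member passed between Clones 35 and 28 (5.57%). The TMPRSS13 differences were 0.20 and 0.41 (adjusted p = 0.0929 and 3.72e-04), both higher in Clone 39. ST14 and SPINT1 passed in neither treatment, and over the 3 contrasts in each their 95% intervals on the log2 scale lay between -0.20 and 0.16 for ST14 and between -0.21 and 0.26 for SPINT1.

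**Figure D2:**
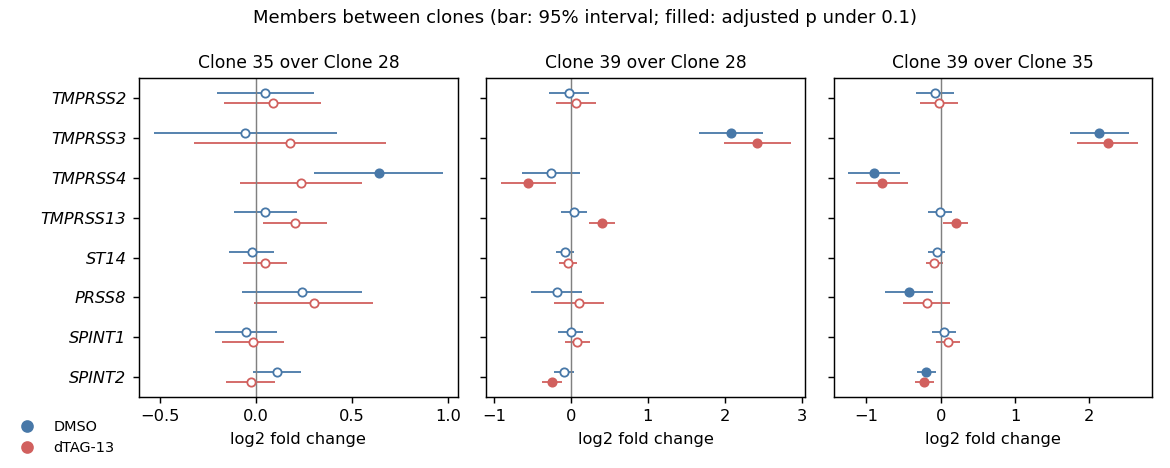
Log2 fold change of each gene between clones (x axis) in the DMSO groups (blue) and in the dTAG-13 groups (red), with 95% intervals from edgeR's 6-group model and filled points where the adjusted p is under 0.1. TMPRSS3 stands near 2 in both contrasts with Clone 39, TMPRSS4 is highest in Clone 35 in DMSO, and TMPRSS13 differs between Clones 39 and 28 in the dTAG-13 groups.

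Whether loss of TRPS1 changed transcription of these genes was read from dTAG-13 against DMSO. Every library came from a tagged clone, so an effect of the compound itself cannot be told apart from loss of TRPS1. With the 3 clones together 0 of 8 members passed the adjusted threshold of 0.1, where 0.551% of all tested genes passed. DESeq2 also called 0, and 4 members had an unadjusted p under 0.05, as did 6.32% of all genes. With the 12 pairs in the model 1 member passed, TMPRSS13, which was lower, where 2.33% of all genes passed and 0.932% were called lower. Of the 8 estimates 7 were negative, and their median was -0.08 on the log2 scale against -0.0018 for all tested genes. The 8 estimates come from the same libraries, and whether the members changed as a set was not tested.

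**Figure D3:**
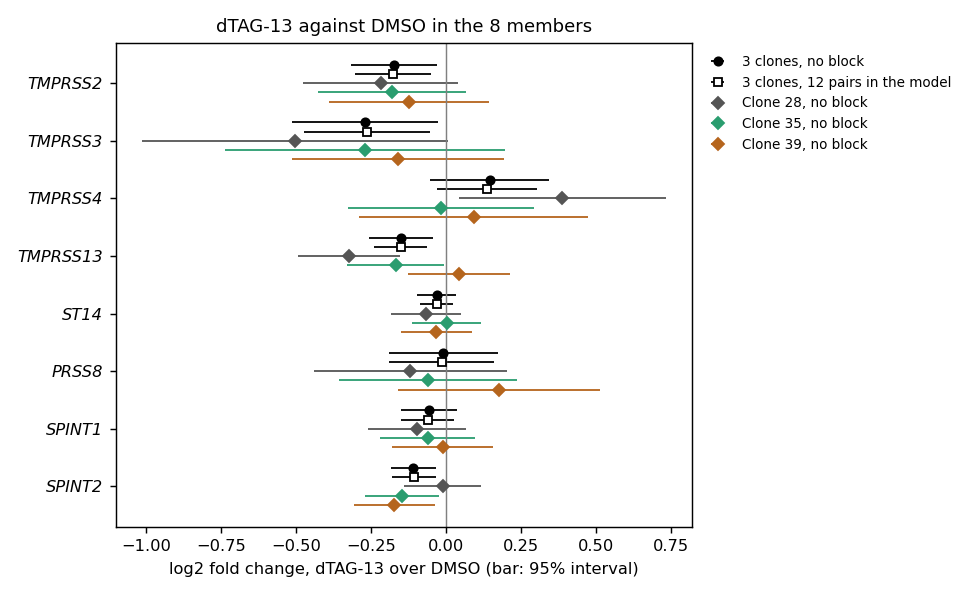
Log2 fold change of dTAG-13 over DMSO (x axis) for each gene, with 95% intervals, for the 3 clones together without and with the 12 pairs in the model and for each clone alone. TMPRSS13 is at -0.32 in Clone 28, -0.17 in Clone 35 and 0.04 in Clone 39, and the intervals of ST14 and SPINT1 for the 3 clones together lie close to 0.

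TMPRSS13 (ENSG00000137747, chr11:117900641-117929459, minus strand, 13 exons) was lower in the dTAG-13 libraries of Clone 28. Its DMSO libraries held 51.0, 55.7, 59.8 and 60.1 CPM there and its dTAG-13 libraries 40.8, 44.3, 50.2 and 45.3 CPM, so every dTAG-13 value was below every DMSO value, as for 1.42% of all tested genes. The difference was -0.32 on the log2 scale (95% interval -0.49 to -0.15, SE 0.083). It missed the threshold in the 6-group model (adjusted p = 0.250), in which 0 of 8 members and 0.0537% of all genes passed and 2 members had an unadjusted p under 0.05, as did 4.83% of genes. It passed with the pairs in the model (-0.33, adjusted p = 0.00628), in which 1.18% of genes passed and 0.385% were called lower. Within pairs the difference ranged from -0.40 to -0.25, and the blocked call held on leaving out any one of the 12 pairs (adjusted p at most 0.0961).

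In Clone 35 TMPRSS13 held 57.9, 57.3, 61.0 and 58.6 CPM in DMSO and 45.6, 49.8, 53.8 and 58.8 CPM in dTAG-13. It was lower in 3 of 4 pairs there, by a difference of -0.17 that did not pass (adjusted p = 1.00, and 0.605 with the pairs). In Clone 39 it held 50.1, 63.6, 58.3 and 61.5 CPM in DMSO and 58.3, 61.0, 57.5 and 62.9 CPM in dTAG-13, with 2 of 4 pairs lower and a difference of 0.04 (95% interval -0.13 to 0.21).

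The difference of the dTAG-13 effect between the clones did not pass for TMPRSS13 (unadjusted p = 0.0138, and 0.00184 with the pairs; adjusted p = 1.00 in both), a test that 0.00% of genes passed without the pairs and 0.00448% with them, so the clones are not shown to differ. With the 3 clones together its change was -0.15 (95% interval -0.26 to -0.05, adjusted p = 0.402), lower in 9 of 12 pairs, and with the pairs in the model -0.15 (adjusted p = 0.0605). The blocked call held without Clone 39 (-0.24, adjusted p = 0.00210) and was lost without Clone 28 (-0.07, adjusted p = 0.8291) or without Clone 35 (-0.14, adjusted p = 0.382). It was also lost on leaving out any one pair of Clone 28, or the pair of replicate 1 or 3 in Clone 35 (adjusted p at most 0.205 over the 12 pairs).

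**Figure D4:**
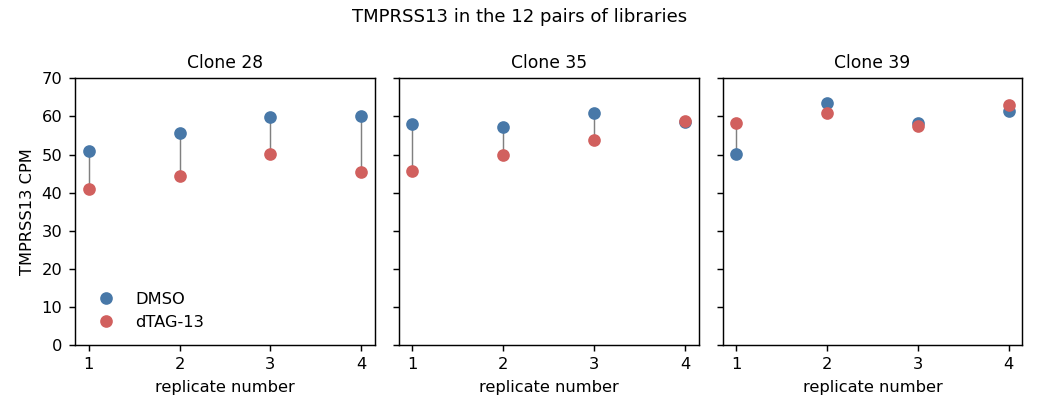
TMPRSS13 CPM (y axis, from 0) in the DMSO and dTAG-13 libraries of each replicate number (x axis), with a grey line joining each pair, for the 3 clones. In Clone 28 the dTAG-13 library lies below its DMSO partner in all 4 pairs, in Clone 35 in 3 of 4 and in Clone 39 in 2 of 4.

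TMPRSS13 also moved with the replicate number. In a model of the 6 groups plus replicate number it differed between numbers (adjusted p = 0.0141), as did 37.2% of all tested genes, and replicate 1 lay below the mean of its own group in 6 of 6 groups. Replicates 3 and 4 exceeded replicate 1 by 0.18 and 0.20 on the log2 scale (adjusted p = 0.0132 and 0.00441). TMPRSS4 passed the same test (adjusted p = 0.0662), with replicate 3 below its group mean in all but 1 group, and lost the call on leaving out any one of 5 libraries (adjusted p at most 0.182), namely dTAG-13 replicates 3 and 4 of Clone 28, DMSO replicate 3 of Clone 39 and dTAG-13 replicates 3 and 4 of Clone 39. Whether a number stands for the same time of day in different clones is not given in the sources used here.

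TMPRSS2 (ENSG00000184012, chr21:41464300-41531116, minus strand, 14 exons), known as an androgen-regulated gene of the prostate and as an activator of viral glycoproteins, had a small negative estimate in each clone that passed in none. Its DMSO libraries held 24.9, 22.8, 20.2 and 23.0 CPM in Clone 28, 26.5, 22.3, 22.0 and 23.6 CPM in Clone 35, and 19.0, 26.0, 20.7 and 23.6 CPM in Clone 39. The dTAG-13 libraries of TMPRSS2 held 15.3, 18.8, 20.5 and 23.0 CPM, 22.4, 23.2, 17.8 and 20.2 CPM, and 20.4, 23.9, 16.9 and 20.2 CPM in the same order of clones. The groups overlapped in every clone, and 9 of 12 pairs were lower.

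With the 3 clones together the TMPRSS2 difference was -0.18 (95% interval -0.32 to -0.03), which did not pass (adjusted p = 0.587, and 0.191 with the pairs). Its estimates were -0.22, -0.18 and -0.12 in Clones 28, 35 and 39. The interferon-induced gene MX1 overlaps TMPRSS2 by 5772 bp on the opposite strand at a mean of 71.3 CPM. MX1 was higher in Clone 39 than in Clone 28 by 2.07 in DMSO (adjusted p = 4.85e-09), while TMPRSS2 differed by -0.03 (95% interval -0.29 to 0.23).

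TMPRSS3 had the largest estimate for dTAG-13, -0.27 with the 3 clones together (95% interval -0.51 to -0.03), and 10 of 12 pairs were lower, but it did not pass (adjusted p = 0.708, and 0.293 with the pairs). Its counting error, taken from the mean count over all libraries, was 15.5% and its spread within groups 24.9%, each the largest of the 8 genes. That error pools clones with few and with many reads, so it is too low for the clones with few reads. How much of the spread was counting noise was therefore not resolved. TMPRSS4 was the one member with a positive estimate, 0.14 (-0.05 to 0.34, adjusted p = 0.952), with 7 of 12 pairs higher and all 4 pairs of Clone 28 among them.

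ST14 (ENSG00000149418, chr11:130159782-130210362, plus strand, 19 exons) had the most counts and the smallest spread within groups of the 8 genes. It ranged from 139 to 165 CPM over the 24 libraries, with a spread within groups of 4.49% against a counting error of 3.54%. SPINT2, with fewer counts, had a spread of 4.83% against a counting error of 5.46%. The small spread of ST14 therefore does not show that its transcription was more even. The dTAG-13 difference of ST14 was -0.03 (95% interval -0.10 to 0.03), the narrowest interval of the 8 genes. No annotated gene overlaps ST14.

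The partner protease PRSS8 ranged from 9.65 to 19.9 CPM and had a dTAG-13 difference of -0.01 (95% interval -0.19 to 0.17), with 7 of 12 pairs lower. Its estimates were -0.12 in Clone 28, -0.06 in Clone 35 and 0.18 in Clone 39, none of which passed. The inhibitor SPINT1 (ENSG00000166145, chr15:40844018-40858207, plus strand) ranged from 38.2 to 49.1 CPM and differed by -0.06 (-0.15 to 0.03). SPINT1-AS1 overlaps SPINT1 by 425 bp on the opposite strand at a mean of 18.6 CPM.

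SPINT2, the second inhibitor, was lower in 9 of 12 pairs. In Clone 35 its dTAG-13 libraries held 63.0, 63.8, 66.0 and 63.3 CPM, all below the DMSO values given above, as for 1.24% of all tested genes. In Clone 39 they held 52.8, 57.9, 53.4 and 56.0 CPM, and in Clone 28 they held 64.7, 66.6, 63.5 and 66.6 CPM against 63.4, 61.0, 67.1 and 71.7 CPM in DMSO. The estimates of SPINT2 were -0.15 in Clone 35, -0.17 in Clone 39 and -0.01 in Clone 28, none of which passed (adjusted p = 1.00 in each).

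With the 3 clones together the SPINT2 difference was -0.11 (95% interval -0.19 to -0.03, adjusted p = 0.380, and 0.150 with the pairs). With the pairs, leaving out the pair of replicate 2 of Clone 28 brought it past the threshold (-0.13, adjusted p = 0.0571), and without any other single pair the adjusted p was 0.114 to 0.293. In Clones 35 and 39 no gene passed the threshold in the 6-group model (0.00%), with 2.89% and 3.38% of genes at an unadjusted p under 0.05. No member passed in Clone 35 or 39 with the pairs in the model either, where 0.0941% and 0.0717% of genes did.

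**Figure D5:**
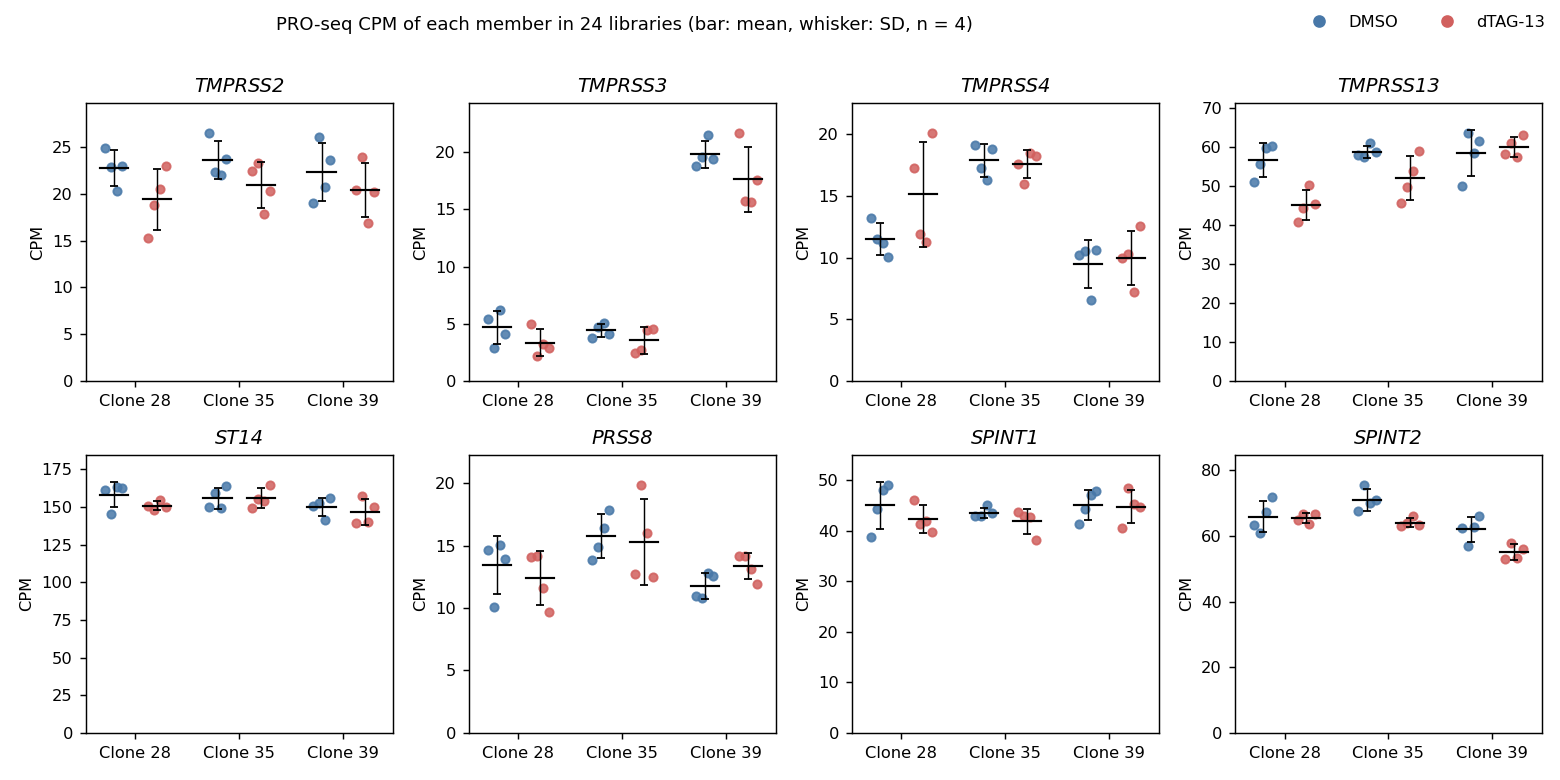
CPM of each of the 8 genes in the 24 libraries (y axis, from 0), by clone and treatment, with the mean as a bar and the SD as a whisker (n = 4). The TMPRSS3 points of Clone 39 stand apart from the other clones, and the TMPRSS13 points of Clone 28 separate by treatment.

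Beyond the 8 members, few genes of the wider protease system passed a test. Of 12 other type II transmembrane serine proteases 7 passed the filter, and none passed the dTAG-13 threshold with or without the pairs. The highest were HPN, which encodes hepsin, at 52.8 CPM, CORIN, which activates natriuretic peptide, at 17.2 CPM, TMPRSS9 at 8.01 CPM and TMPRSS5 at 3.76 CPM. The 5 that failed the filter, TMPRSS6 and 4 members of the TMPRSS11 family, had at most 12 counts in any library. Of 3 other membrane-anchored serine proteases only PRSS27, at 14.3 CPM, passed the filter, and its difference was -0.17 (adjusted p = 0.852).

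Of 13 substrates and receptors of these proteases 12 passed the filter, with a median dTAG-13 difference of -0.04. None passed without the pairs, and SCNN1A, the alpha subunit of the epithelial sodium channel that PRSS8 is known to act on, passed with them. SCNN1A was lower in 12 of 12 pairs, by a difference of -0.17 (adjusted p = 0.168, and 0.0776 with the pairs). The highest of this list were CDCP1 at 65.3 CPM, EPCAM at 43.1 CPM, MST1R, the receptor of macrophage-stimulating protein, at 36.4 CPM, and SCNN1A at 28.4 CPM. HGF failed the filter with at most 8 counts in a library, and its receptor MET averaged 2.04 CPM.

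Of 6 other inhibitors 2 passed the filter, SERPINA1, which encodes alpha-1 antitrypsin, at 70.1 CPM and SERPINA5 at 1.66 CPM, and neither passed the dTAG-13 threshold. SPINT3 and SPINT4, the other Kunitz inhibitors of the family, had at most 1 count in any library and stood at 0 in 22 and 21 libraries. The luminal marker KRT19 passed, lower by a difference of -0.13 (adjusted p = 0.0346), and the other 6 luminal markers did not. Its part in the values of the members was not tested.

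Across the 24 libraries the correlation of levels over the 28 pairs of members ran from -0.67 for TMPRSS3 and TMPRSS4 to 0.57 for ST14 and SPINT2, with TMPRSS3 and SPINT2 at -0.60 and a median of 0.14. These levels include the differences between clones. The correlation of deviations from the 6 group means ran from -0.45 to 0.48 with a median of 0.18. In both measures the values of a pair come from the same libraries, so they share each library's depth and handling. The most alike in their deviations were ST14 and SPINT2 (r = 0.48) and SPINT1 and SPINT2 (r = 0.44). Over all 22326 tested genes the pattern of TMPRSS13 was most like those of MVK (r = 0.88), an enzyme of the mevalonate pathway, and TNFAIP1 (r = 0.85). TMPRSS2 was most like NATD1 (r = 0.76) and ERAP1 (r = 0.74), TMPRSS3 most like HTT-AS (r = 0.75), and TMPRSS4 most like EEF1E1 (r = 0.79). Among the other members, ST14 was most like PPM1G (r = 0.80), SPINT1 most like TMEM60 (r = 0.80), PRSS8 most like LINC02004 (r = 0.77) and SPINT2 most like WNK4 (r = 0.74). Each is the highest of many correlations and is given as a description.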

How the data were processed

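Counts of PRO-seq reads per gene were deposited for 24 libraries as whole numbers without normalization. The authors removed adapters with cutadapt 1.8.1, collapsed duplicates with fqdedup and unique molecular identifiers, reverse complemented the reads, removed ribosomal reads, aligned the rest to hg38 with Bowtie2 2.4.4, handled alignments with SAMtools 1.9 and counted with bedtools; versions are from the submitters' processing notes. Annotation, gene windows and strand setting are not given in the sources used here. Symbols and coordinates came from GENCODE 44, which held 60463 of the 60605 identifiers.

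Counts were analysed with edgeR 4.0.16 (R 4.3.3): filterByExpr with a minimum count of 10, TMM scaling, robust quasi-likelihood tests and Benjamini-Hochberg adjusted p-values over 22326 genes, with a threshold of 0.1. Models had clone and treatment, the 6 groups, or the 6 groups plus replicate number; in the alternatives a term for each of the 12 pairs was added. The study's methods state that treatments of a replicate were collected together, and same-numbered libraries of a clone deviated together (r = 0.0926 to 0.318 over 12 pairs). Replicates differed by more than counting noise (chi-square per degree of freedom 1.65 to 13.6). The scripts were tested on simulated data. Alternatives were DESeq2 1.42.0, RLE size factors, no filter, and leaving out libraries, pairs or clones.

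All 8 members were named. Of the other lists, genes passing the threshold with or without the pairs and up to 4 genes of highest mean CPM were named, with the 2 tested genes nearest each member considered. Members and lists were chosen with earlier results of these data known.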

Additional observations from a re-analysis of the deposited data

Results flagged for a closer look

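Each of the 8 genes was examined in each of the 6 groups of 4 libraries for a value far from the other 3, and 3 of 48 sets were picked out where chance gives about 1 in 20, or 2.4. TMPRSS4 in DMSO replicate 3 of Clone 39 stood at 6.54 CPM, below the other DMSO libraries of that clone at 10.2 to 10.6 CPM, and its dTAG-13 partner was also the lowest of its group at 7.18 CPM. ST14 in DMSO replicate 2 of Clone 28 stood at 146 CPM, below the other 3 at 161 to 163 CPM. SPINT1 in dTAG-13 replicate 4 of Clone 35 stood at 38.2 CPM, below the other 3 at 42.7 to 43.6 CPM. Without the first of these libraries TMPRSS4 lost its call between replicate numbers, as given above; the cause of the 3 values was not tested.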

How the results depend on the processing

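With the 12 pairs in the model the members called for dTAG-13 in the 3 clones rose from 0 to 1 and the genes called from 123 to 521. Leaving out one pair at a time under this block gave 0 to 1 members and 401 to 574 genes. Under the block 1 member was called without Clone 39, and the genes called were 177 without Clone 28, 359 without Clone 35 and 382 without Clone 39. Without the block, dTAG-13 genes numbered 197 with no filter, 1 without Clone 28, 37 without Clone 35 and 37 without Clone 39, and 66 to 149 with one library left out. In Clone 28 the block moved members from 0 to 1 (1 with any pair left out) and genes from 12 to 263 (148 to 350), RLE size factors gave 7 genes, and leaving out a library gave 2 to 28. Under the block Clone 35 had 21 genes (2 to 55), Clone 39 had 16 (2 to 23, and 0 to 1 without it) and the difference between clones 1 (0 to 2). Between clones in DMSO, adding the replicate number gave 2664 genes for Clones 35 and 28. One library left out gave 2 to 4 members for Clones 39 and 35 and 1 to 2 for replicate numbers. In the dTAG-13 groups, which are other samples, 0 members passed between Clones 35 and 28 and 4 between Clones 39 and 28, and TMPRSS13 between Clones 39 and 35 turned from -0.012 to 0.20 (adjusted p = 0.0929). The pairs changed no other call of a member with all libraries kept; SPINT2 also passed without the pair of replicate 2 of Clone 28 (adjusted p = 0.0571). Pair and clone omissions under the block and the dTAG-13 contrasts were chosen after seeing the data, and where no value shows it, the cause was not tested.

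Of 2496 values for single members under these settings, 2393 kept their side of the threshold and, for tests that have one, their direction. This count includes results that did not pass and stayed so. Depth limits TMPRSS3 most, with 13 to 97 counts per library, and with the clones together its dTAG-13 interval was the widest of the members. The smallest change that could be detected was not computed. TMPRSS2, TMPRSS4 and PRSS8 had 23 to 176 counts. Intervals cover the spread between these libraries. Levels per kb depend on the annotation, and opposite-strand genes that overlap a member may share its counts.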
